A study of Mus musculus with 10 samples.

Results

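The proteasome genes of mouse gastrocnemius were followed in mice in which the microRNA miR-22 was inhibited. They were taken by symbol, as every gene of the counts table whose name starts with Psma, Psmb, Psmc, Psmd, Psme, Psmf or Psmg and a number, and 51 of 21160 genes met this rule. Among them, 19 encode the core particle, 17 the regulatory particle, 7 assembly chaperones, and 5 activators or inhibitors of the core. Psmc3ip and Psme3ip1 carry the name of a subunit that their proteins bind and are not subunits, and Psme2b is a further copy of an activator gene that was put in no list.

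The muscle came from wild-type C57BL/6J male mice (C57BL/6JBomTac in the study's methods) with diet-induced obesity (DIO). They were fed a 60% high-fat diet (D12492i) from 9 weeks of age, for 9 weeks before treatment. By the study's methods, they were randomized between the groups once all weighed more than 40 g. The study's listed weights on the first day lie below this in some control mice and in no treated mouse. Those weights are not linked to the libraries. The anti-miR-22 group (labelled LNA and RES-010, here ASO) received an unconjugated antisense oligonucleotide, a mixmer with locked nucleic acid modifications and a phosphorothioate backbone, subcutaneously at 10 mg/kg once weekly for 14 weeks. The control group (labelled VHL, here CTRL) received 0.9% saline on the same schedule, so it does not hold an oligonucleotide of another sequence. The mice are described as 30 weeks old, which is less than the sum of the age at the start of the diet, the weeks of diet and the weeks of treatment, and the age at dissection is uncertain by that difference. Both groups had 5 libraries, with 2239186 to 2632560 counts with the ASO and 1606909 to 2116720 in CTRL, so every ASO library was deeper than every CTRL library. The values are counts of read pairs on the last 500 bp, or less, of annotated 3′UTRs, called segments below, and a gene's value is the sum over its segments.

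The proteasome is the main protease for proteins that carry ubiquitin. Its core particle is a barrel in which outer rings of alpha subunits gate the entry and inner rings of beta subunits cut the substrate. The regulatory particle caps the barrel, with a base of ATPases that unfold the substrate and a lid that removes ubiquitin. In skeletal muscle this pathway degrades myofibrillar proteins, and its ligases Trim63 and Fbxo32 are known as markers of atrophy.

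Since the ASO is directed against miR-22, the mature sequence and the sites that match its seed are shown first. Bases 2 to 8, the seed, are in capitals in the RefSeq sequence of mmu-miR-22-3p (GRCm38.p6, chr11:75463772-75463793, + strand), and the capitals in the sites below mark the heptamer GGCAGCT that pairs with it. The sites were read on GRCm39 from the longest annotated protein-coding 3′UTR of each gene, on the strand of the gene.
mmu-miR-22-3p: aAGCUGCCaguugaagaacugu
Psma2 (chr13:14801945-14801973, + strand): gtgtgtttgaaGGCAGCTacagtgtactc
Psma3 (chr12:71041417-71041445, + strand): gcacctacaatGGCAGCTcacacctgtct
Psmc5 (chr11:106155952-106155980, + strand): tagggttccagGGCAGCTgagccaagggc
Psmd4 (chr3:94938460-94938488, - strand): tttaagacctgGGCAGCTcttaggctggt

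Of 40 proteasome genes that could be tested, 5 had a match, a share of 12.5%, and 4 of them are shown. Over 7781 tested genes with such a 3′UTR the share was 21.7%, and the median length of the 3′UTR was 2024 bases against 1528.5 in the proteasome genes. Of the genes shown, Psmc5 and Psmd4 were higher with the ASO, Psma3 was lower, and Psma2 did not pass the test. The median log2 fold change of the genes with a match was 0.31, and that of the proteasome genes without a match was 0.32. The sites of Psma2 and Psma3 lie within counted segments, and those of Psmc5 and Psmd4 do not. A match of these letters is a description and does not show that miR-22 binds there.

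A total of 40 proteasome genes had enough counts for the test, edgeR's quasi-likelihood test, adjusted by Benjamini-Hochberg over 7819 features, at an adjusted p of 0.05. Of these, 18 (45%) were higher with the ASO and 5 (12.5%) were lower. Over all features tested, 11.7% were higher and 17.5% were lower. With library totals as the scale in place of TMM, 11 proteasome genes were higher and 6 lower, against 6.75% and 23.3% of all features. The median log2 fold change of the proteasome genes was 0.32, and that of all features was -0.03. In 17 of the 40 every ASO library lay above every CTRL library, and in 5 every ASO library lay below, where 7.98% and 13.4% of all features did so. The labels name each library as a separate sample without saying more of the animals, so the p-values measure the spread between these libraries.

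Summed markers of cell types were compared between the groups, and only those of skeletal muscle did not overlap. The summed level of the skeletal muscle markers was 92865 to 148660 CPM (counts scaled to the library size, adjusted by TMM) with the ASO and 45717 to 87300 CPM in CTRL, with no overlap. Of 12 such markers, 6 could be tested, 3 were higher and none was lower, and 2 had no count. Macrophage markers summed to 80.2 to 626 CPM with the ASO and 296 to 1859 CPM in CTRL, which overlap, and 2 of 7 tested were lower. Adipocyte markers (720.5 to 3758 CPM with the ASO, 846 to 13738 in CTRL), endothelial markers (179.7 to 394 and 197 to 348) and blood markers (282 to 1714 and 891 to 1467) overlapped between the groups, and none of 6, 6 and 4 tested passed the test. No lymphocyte marker had enough counts to be tested, and their sum reached 7.19 CPM at most. The part of these cell types in the results was not tested, and in whole muscle fewer cells of a type cannot be told apart from less RNA per cell. Neither miR-22 nor its host transcript is counted, so the labels could not be checked against the target.

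**Figure D1:**
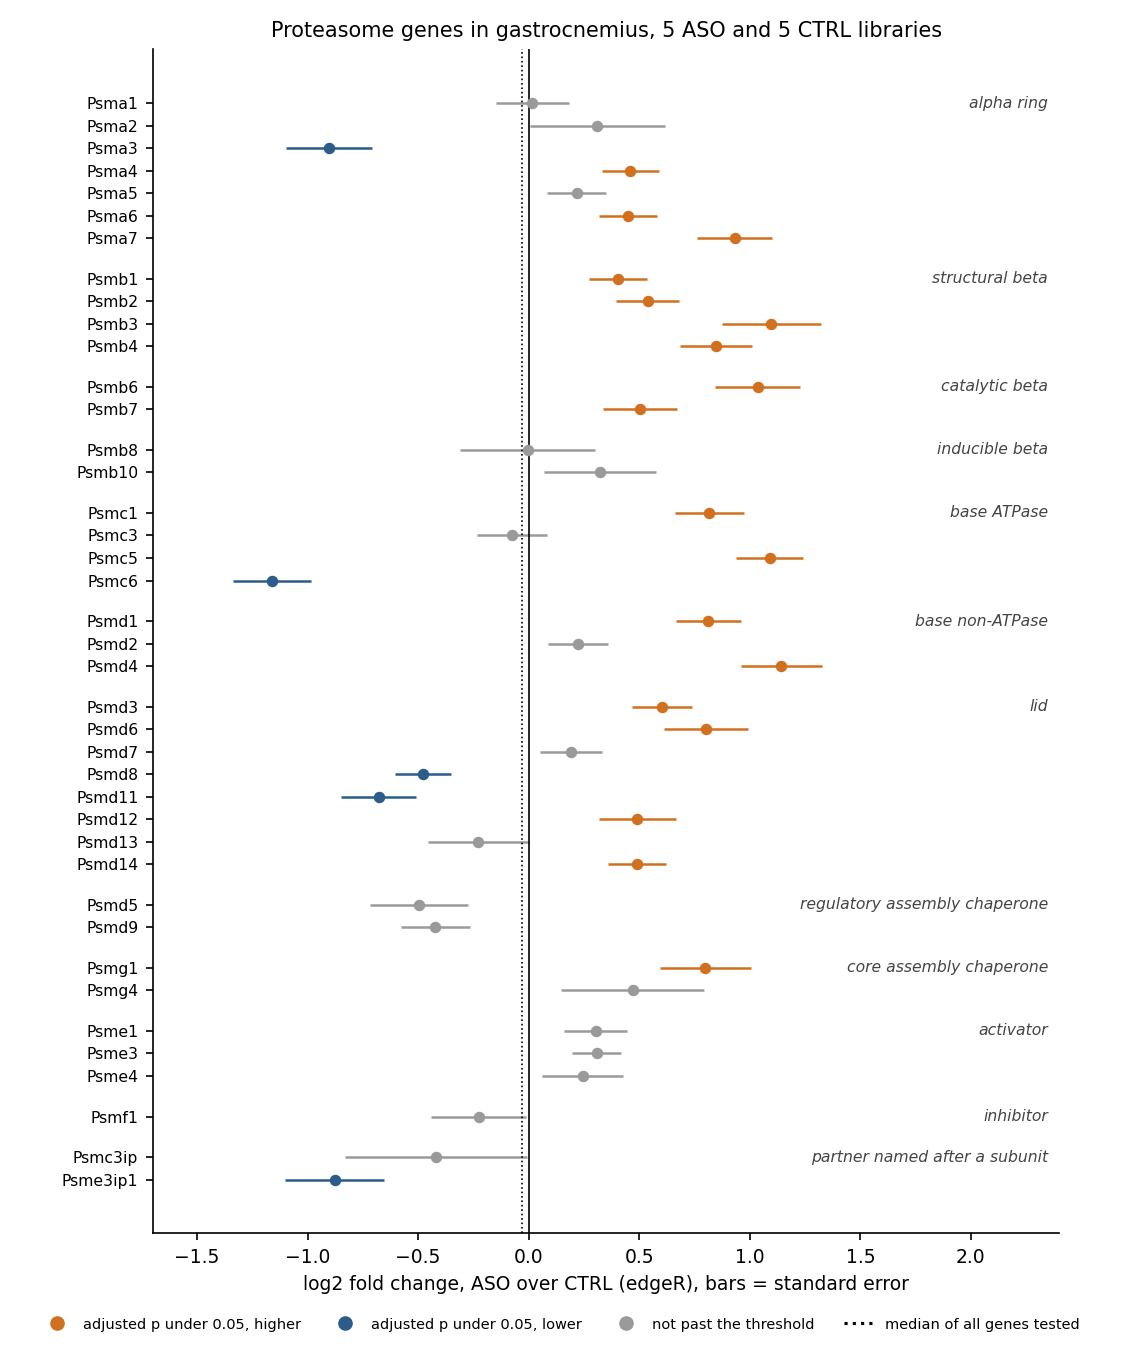
Log2 fold change of each of the 40 tested proteasome genes, ASO over CTRL (x axis), grouped by role (y axis), with bars for the standard error from edgeR over 5 and 5 libraries. Orange points passed the test as higher (18) and blue points as lower (5), and the dotted line is the median of all features, -0.03.

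In the core particle, 15 of 19 genes were tested, 9 were higher and 1 was lower, with a median log2 fold change of 0.45. The alpha subunits form the gated outer rings. Psma7 had the highest fold change among them. It was counted on chr2:179678167-179678614 (- strand) of GRCm39, at 218, 232, 349, 219 and 248 CPM in the ASO libraries (in the order of their replicate numbers, as everywhere below) and at 155, 152, 114, 130.4 and 111 CPM in the CTRL libraries. The groups did not overlap, and ASO replicate 3 stood far above the rest. The means were 253 ± 54.9 CPM for the ASO against 133 ± 20.7 CPM for CTRL (SD, n = 5), a 1.91-fold difference (log2 fold change 0.93, SE 0.17, adjusted p = 0.00184 by edgeR).

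Psma4 (chr9:54865074-54865314, + strand) had 289, 308, 353, 273 and 288 CPM in the ASO group and 242, 239, 208, 221 and 188 CPM in the CTRL group. All ASO libraries were higher, with a smaller difference than for Psma7 (log2 fold change 0.46, SE 0.13, adjusted p = 0.0174 by edgeR). Psma6 (chr12:55464727-55465226, + strand), another ring subunit, was at 213, 193, 239.8, 212 and 204 CPM with the ASO against 172, 180.5, 126, 149.9 and 149.9 CPM in CTRL. It too did not overlap (log2 fold change 0.45, SE 0.13, adjusted p = 0.0216 by edgeR). Its segment lies opposite to Gm60863, and since no strand option is named for the counting, reads of genes on opposite strands cannot be told apart.

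Psma3 went the other way. On the summed segments it had 20.3, 25.5, 16.9, 20.5 and 24.99 CPM in the ASO libraries and 30.2, 40.1, 34.1, 56.1 and 42.7 CPM in the CTRL libraries, so every ASO library was below every CTRL library (log2 fold change -0.90, SE 0.19, adjusted p = 0.00476 by edgeR). Most of its counts, 87.2%, are on a segment (chr12:71041196-71041695, + strand) that lies 1426 bp upstream of its most distal one, and 3110056K07Rik overlaps it on the other strand. The other ring subunits did not pass the test, with log2 fold changes of 0.02 for Psma1, 0.31 for Psma2 and 0.22 for Psma5 (adjusted p = 0.954, 0.472 and 0.244 by edgeR).

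The structural beta subunits, which line the inner rings and carry no active site, were all measured and all 4 were higher. Psmb3 (chr11:97604268-97604326, + strand) changed by the largest factor of these, from 55.6, 65.3, 59.8, 55.5 and 32.6 CPM in CTRL to 93.2, 92.6, 174, 95.2 and 121 CPM with the ASO. The groups were well apart, with CTRL replicate 5 the lowest and ASO replicate 3 the highest library. Its mean was 2.14-fold higher (log2 fold change 1.10, SE 0.22, adjusted p = 0.00357 by edgeR).

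Psmb4 (chr3:94791404-94791738, - strand) had 212, 228, 324, 268 and 284 CPM in the ASO group and 181, 169, 120.0, 128 and 134 CPM in the CTRL group, again without overlap (log2 fold change 0.85, SE 0.16, adjusted p = 0.00275 by edgeR). Psmb2 (chr4:126603380-126603507, + strand) lay at 181, 180.1, 265, 186 and 202 CPM in the ASO group and at 159.9, 151, 125, 128 and 135 CPM in the CTRL group. Its ASO libraries were close together except for replicate 3 (log2 fold change 0.54, SE 0.14, adjusted p = 0.0142 by edgeR). Psmb1, counted mainly on chr17:15696221-15696720 (- strand), had 518, 537, 679, 628 and 583 CPM in the ASO group and 477, 511, 413, 414 and 413 CPM in the CTRL group. The lowest ASO library was just above the highest CTRL library (log2 fold change 0.40, SE 0.13, adjusted p = 0.0346 by edgeR).

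The catalytic beta subunits cut the substrate. Psmb6, which holds the caspase-like site, was counted on chr11:70418406-70418475, + strand. Its level was 304, 237, 443, 254 and 335 CPM in the ASO libraries and 177, 177, 112, 152 and 149 CPM in the CTRL libraries. No ASO library reached down to the CTRL range, and the mean was 2.05-fold higher (log2 fold change 1.04, SE 0.19, adjusted p = 0.00222 by edgeR). Psmb7 (trypsin-like site, chr2:38478048-38478188, - strand) had 370.3, 315, 401, 258 and 323 CPM in the ASO group and 283, 280.2, 198, 186 and 228 CPM in the CTRL group. Here ASO replicate 4 fell below the 2 highest CTRL libraries (log2 fold change 0.50, SE 0.17, adjusted p = 0.04 by edgeR), and Nek6 lies on the other strand of the segment. Psmb5 (chymotrypsin-like site) had no count, but only 2 of the 144 bp of its segments lie outside the segments of other transcripts, so its level was not measured.

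The inducible beta subunits replace the catalytic ones in the immunoproteasome, which immune cells carry and interferon induces. Psmb8 was at 28.00, 19.1, 22.8, 22.96 and 15.1 CPM in the ASO group and at 14.1, 13.99, 41.00, 23.01 and 16.3 CPM in the CTRL group. The groups overlapped fully, with CTRL replicate 3 the highest library (log2 fold change -0.01, SE 0.31, adjusted p = 0.991 by edgeR). CTRL replicate 3 was also the highest library for the summed macrophage markers (1859 CPM) and the summed adipocyte markers (13738 CPM). A link of Psmb8 to either was not tested. Psmb10 had 14.1 to 21.7 CPM in the ASO group and 6.74 to 17.7 CPM in the CTRL group and did not pass either (log2 fold change 0.32, SE 0.25, adjusted p = 0.365 by edgeR). Psmb9 had 28 counts in all 10 libraries and was not tested, and Psmb11, known from the thymus, had 0 counts. None of the inducible subunits passed the test, while both tested catalytic subunits did, and this difference was not tested itself.

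**Figure D2:**
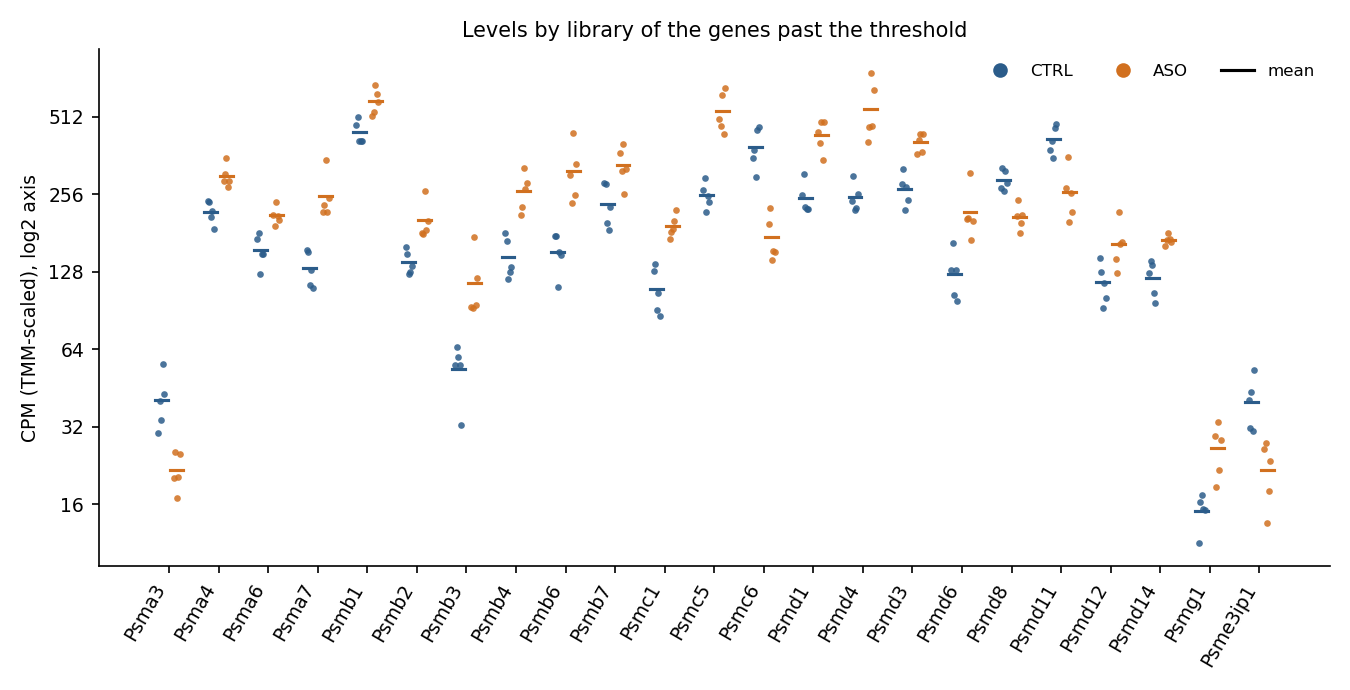
Level in CPM on TMM-scaled library sizes (y axis, log2 scale) of the 23 proteasome genes past the threshold (x axis), with a point for each of 5 CTRL (blue) and 5 ASO (orange) libraries and a line at the mean. The ranges of Psmb3, Psmb6, Psmc5 and Psmd4 are clear of each other, those of Psmb7, Psmd11 and Psmd12 overlap, and levels of different genes cannot be compared because their segments differ in length.

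In the regulatory particle, 15 of 17 genes were tested, 8 were higher and 3 were lower, with a median log2 fold change of 0.49. The ATPases of the base unfold the substrate and thread it into the core. Psmc5 had the smallest p of all proteasome genes. Counted on chr11:106153447-106153946, + strand, it was at 504, 473, 624, 441 and 663 CPM in the ASO group and at 265, 295, 218, 253 and 239 CPM in the CTRL group. The lowest ASO library was far above the highest CTRL library. Means of 541 ± 97.05 CPM for the ASO against 254 ± 28.9 CPM for CTRL (SD, n = 5) gave a 2.13-fold difference (log2 fold change 1.09, SE 0.15, adjusted p = 0.000462 by edgeR). Smarcd2 overlaps its segment on the other strand.

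Psmc1 (chr12:100089452-100089664, + strand), which helps to open the gate of the core, had 172, 183, 189, 202 and 223 CPM in the ASO group and 129, 137, 90.9, 106 and 85.9 CPM in the CTRL group. The groups were apart (log2 fold change 0.82, SE 0.15, adjusted p = 0.00247 by edgeR). Psmc6, with most counts on chr14:45577809-45578308, + strand, fell instead, from 354, 382, 298, 454 and 466 CPM in the CTRL libraries to 196, 227, 142, 154 and 153 CPM in the ASO libraries. Every ASO library was below every CTRL library (log2 fold change -1.16, SE 0.18, adjusted p = 0.000716 by edgeR). Psmc3 had a log2 fold change of -0.07 (adjusted p = 0.75 by edgeR). Psmc2 had no count and Psmc4 had 5, on segments with 10 of 156 bp and 50 of 150 bp outside other segments.

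The non-ATPase subunits of the base bind ubiquitin and its carriers. Psmd4, a ubiquitin receptor, had the highest fold change of all tested proteasome genes. Its segment (chr3:94940016-94940515, - strand) gave 409, 466, 761, 474 and 649.7 CPM in the ASO group and 241, 301, 222, 227 and 258 CPM in the CTRL group. The ASO libraries spread more widely than the CTRL libraries but stayed above them. The mean was 2.21-fold higher (log2 fold change 1.14, SE 0.18, adjusted p = 0.000985 by edgeR), and Gm65650 and Gm65664 are annotated on the other strand.

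Psmd1, a scaffold subunit, had 446, 406, 490.5, 349 and 488 CPM in the ASO group and 254, 308, 229, 224 and 225 CPM in the CTRL group. All ASO libraries were higher (log2 fold change 0.81, SE 0.15, adjusted p = 0.00184 by edgeR), but Gm21972 is annotated on the same strand of its main segment (chr1:86066374-86066873, + strand), which leaves the share of each gene uncertain. Psmd2, the other scaffold, was at 579, 697, 489.7, 523 and 663 CPM in the ASO group and 507, 539, 451, 529 and 505 CPM in the CTRL group. These values overlapped, and the sum over its segments did not pass the test (log2 fold change 0.22, SE 0.14, adjusted p = 0.238 by edgeR).

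The lid removes ubiquitin chains. Of its 8 genes, all were tested, 4 were higher and 2 were lower. Psmd14, the deubiquitinase of the lid (chr2:61630425-61630720, + strand), had 162, 170.3, 181, 172 and 167 CPM in the ASO group and 127, 141, 136, 106 and 96.6 CPM in the CTRL group. The ASO libraries were close to each other and above all CTRL libraries (log2 fold change 0.49, SE 0.13, adjusted p = 0.0148 by edgeR). Psmd3 (chr11:98586427-98586805, + strand) had 367, 416, 441, 374 and 439 CPM in the ASO group and 281, 319.9, 223, 274 and 244 CPM in the CTRL group. It did not overlap (log2 fold change 0.60, SE 0.13, adjusted p = 0.00568 by edgeR).

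Psmd6 (chr14:8357474-8357589, + strand) was at 206, 207, 311, 169.9 and 202 CPM in the ASO group and at 131, 166, 104, 130.4 and 98.2 CPM in the CTRL group. ASO replicate 3 was far above the other ASO libraries, and ASO replicate 4 was only just above the highest CTRL library (log2 fold change 0.80, SE 0.19, adjusted p = 0.00818 by edgeR). Psmd12 (chr11:107388560-107388999, + strand) had 143, 127, 219, 164 and 166 CPM in the ASO group and 145, 128, 92.4, 116 and 101 CPM in the CTRL group. The groups overlapped and its p lay at the edge of the threshold (log2 fold change 0.49, SE 0.17, adjusted p = 0.0499 by edgeR).

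Psmd8 (chr7:28873613-28874112, - strand) was lower, with 211, 243, 181, 198 and 213 CPM in the ASO group and 270.2, 325, 263, 315 and 282 CPM in the CTRL group. All its counts are on its most distal segment. Only 78 of the 500 bp of that segment lie outside other segments, and 75 bp are coding in the canonical transcript. The groups of Psmd8 did not overlap (log2 fold change -0.48, SE 0.13, adjusted p = 0.0141 by edgeR). Psmd11 was lower as a sum, at 271, 358, 199.6, 259 and 219 CPM with the ASO against 381, 412, 355, 463 and 482 CPM in CTRL. ASO replicate 2 was within the CTRL range (log2 fold change -0.68, SE 0.17, adjusted p = 0.0108 by edgeR). Psmd7, the partner of Psmd14, had 521, 549, 400.4, 453 and 473 CPM in the ASO group and 455, 466, 335, 405 and 440.2 CPM in the CTRL group and did not pass the test (log2 fold change 0.19, SE 0.14, adjusted p = 0.328 by edgeR), and neither did Psmd13 (log2 fold change -0.23, SE 0.23, adjusted p = 0.477 by edgeR).

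The assembly chaperones help to build the particle and leave it afterwards. Psmg1, which starts the ring of alpha subunits, was the only one past the threshold among 4 tested of 7. Mainly on chr16:95781237-95781736, - strand, its level was 29.4, 18.7, 33.4, 21.7 and 28.3 CPM in the ASO libraries and 11.3, 16.3, 17.3, 15.3 and 15.2 CPM in the CTRL libraries. The values are low but did not overlap (log2 fold change 0.80, SE 0.21, adjusted p = 0.012 by edgeR). Psmg4, also a chaperone of the core, had 5.95 to 22.8 CPM in the ASO group and 7.41 to 14.1 CPM in the CTRL group (log2 fold change 0.47, SE 0.32, adjusted p = 0.296 by edgeR). The partner of Psmg1 in that step, Psmg2, has no base outside other segments and no count.

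Chaperones of the base had negative fold changes that did not pass the test. Psmd9 had 17.3 to 22.2 CPM in the ASO group and 23.02 to 29.7 CPM in the CTRL group, without overlap (log2 fold change -0.42, SE 0.16, adjusted p = 0.0593 by edgeR). Psmd5 had 20.3, 22.9, 16.9, 32.98 and 19.8 CPM in the ASO group and 33.5, 36.4, 35.1, 34.8 and 19.6 CPM in the CTRL group. CTRL replicate 5 was within the ASO range, and the other CTRL libraries were above it (log2 fold change -0.50, SE 0.22, adjusted p = 0.11 by edgeR). The chaperone Psmd10 has no base of its own in the table and no count.

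Of the activators, which open the core without the regulatory particle, and the inhibitor Psmf1, 4 of 5 were tested and none passed the test. Psme4, found in the nucleus and known for histone degradation, had 669.6, 762, 477, 516 and 701 CPM in the ASO group and 566, 708, 447, 491 and 426 CPM in the CTRL group. The ranges overlapped widely (log2 fold change 0.24, SE 0.18, adjusted p = 0.34 by edgeR). Psme3 was at 124 to 151 CPM in the ASO group and 101 to 116 CPM in the CTRL group, without overlap but just short of the threshold (log2 fold change 0.31, SE 0.11, adjusted p = 0.0531 by edgeR). Psme1, part of the interferon-induced activator, had a log2 fold change of 0.30 (adjusted p = 0.131 by edgeR), with Emc9 on the other strand, and its partner Psme2 had no count on a segment with 1 unique bp of 87. Psmf1 had 33.3, 29.3, 38.1, 44.7 and 31.1 CPM in the ASO group and 30.7, 33.1, 36.6, 41.3 and 65.7 CPM in the CTRL group and its groups overlapped (log2 fold change -0.23, SE 0.22, adjusted p = 0.454 by edgeR).

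Among the genes that are only named after a subunit, Psme3ip1, whose protein binds the activator Psme3, was lower. It had 26.1, 27.6, 13.5, 17.9 and 23.6 CPM in the ASO group and 40.6, 31.7, 43.5, 30.7 and 53.3 CPM in the CTRL group. No library overlapped (log2 fold change -0.88, SE 0.22, adjusted p = 0.0116 by edgeR), and its main segment (chr8:95302384-95302836, - strand) lies 1618 bp upstream of the most distal one. Psmc3ip, a recombination factor, had a log2 fold change of -0.42 (adjusted p = 0.467 by edgeR). In all, 8 of the 51 genes had no count in any library (Psma8, Psmb5, Psmb11, Psmc2, Psmd10, Psme2, Psmg2 and Psmg3), and Psmb9, Psmc4 and Psme2b had too few. Opposite-strand genes also overlap the segments of Psmb8, Psmb10, Psmd13 and Psmf1. A count of 0 on segments that are shared with another transcript is no evidence of silence. Only Psma8, a testis form, and Psmb11 had 0 counts on segments with many bases of their own (456 and 500 unique bp).

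The main segment of a gene, the one with the most counts, was classed by where most of its bases lay. It was in an exon of the canonical transcript in 30 of 40 tested proteasome genes and in an intron in 10. Of these, 13 (43.3%) and 5 (50%) were higher and 3 (10%) and 2 (20%) lower. The 5 higher genes of the intron class were Psma6, Psma7, Psmb1, Psmd1 and Psmg1. Their segments also hold exon bases, as 247 of 500 bp in Psmb1. Of all genes, 12.1% were higher and 14.9% lower in the first class and 9.93% and 38% in the second. Calls also differed with the distance of the main segment from the most distal one. The groups differed in this respect over all genes. The median log2 ratio of counts on the most distal segment to counts at least 1000 bp upstream, over 1261 genes, was 1.18, 1.22, 1.77, 1.48 and 1.52 in the ASO libraries. In the CTRL libraries it was 0.33, 0.43, -0.07, -0.29 and -0.59. All ASO libraries were above all CTRL libraries. Segments that lie in an intron of the canonical transcript held 7.32% to 8.41% of the counts with the ASO and 9.77% to 12.7% in CTRL.

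Where the main segment was the most distal one, 13 of 22 proteasome genes (59.1%) were higher and 2 (9.09%) were lower. Of 4570 genes of all kinds, 15% and 7.88% were. The 2 lower genes were Psmd8 and Psmd11, and the main segment of Psmd11 held only 33.8% of its counts. With the main segment under 1000 bp upstream, 4 of 9 (44.4%) were higher and none was lower, against 10.1% and 19.9% of 1368 genes. With the main segment farther upstream, 1 of 9 (11.1%) was higher and 3 (33.3%) were lower, against 4.84% and 39% of 1881 genes. The share of higher proteasome genes was above that of all genes in the first and the second class. In the last class it rested on 1 gene, Psmd12 (adjusted p = 0.0499 by edgeR). The counted segment of Psmd12 is an exon of the canonical transcript, and its more distal segment, outside that transcript, held 4 counts. The share of lower proteasome genes was near that of all genes in the first and the last class. These shares carry no test.

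**Figure D3:**
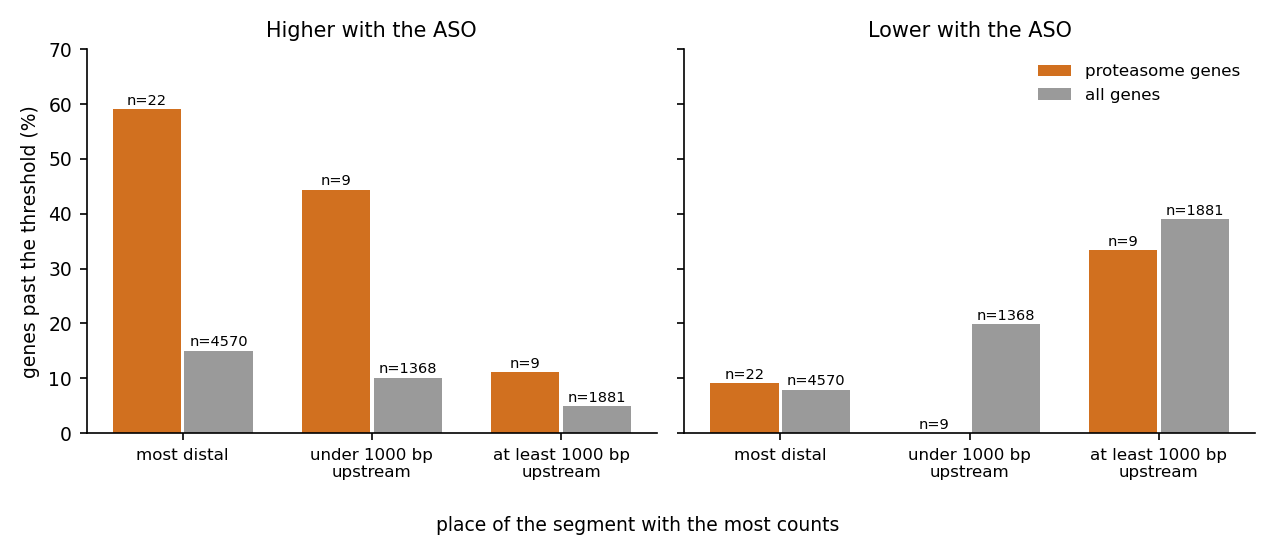
Percent of tested genes past the threshold (y axis, from 0) as higher (left) or lower (right) with the ASO, by the place of the segment with the most counts (x axis), for proteasome genes (orange) and all genes (grey), with the number of genes above each bar. Higher proteasome genes make up 59.1% at the most distal place and 11.1% at least 1000 bp upstream, and lower ones 9.09% and 33.3%.

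A further fit, added after the data were seen, tested each segment on its own, and 8 proteasome genes had more than 1 segment with enough counts. In it, the most distal segment of Psmd11 (chr11:80363575-80364074, + strand) had a log2 fold change of 0.04 (SE 0.16, adjusted p = 0.873 by edgeR). Going upstream, it was -0.80 at 3366 bp, -1.48 at 12557 bp, -1.66 at 16825 bp and -2.27 at 27289 bp. The call of Psmd11 as lower thus came from the upstream segments, which lie in introns of the canonical transcript with parts of exons. Psmc6 was negative throughout, with -0.52 on its most distal segment (adjusted p = 0.0793 by edgeR), -1.14 at 8854 bp and -1.62 at 15025 bp upstream.

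Psmd2 had opposite signs on its segments. On the most distal one (chr16:20481665-20482164, + strand) the log2 fold change was 0.86 (SE 0.14, adjusted p = 0.000555 by edgeR), and on the one 3032 bp upstream it was -0.54 (SE 0.21, adjusted p = 0.055 by edgeR), so the sum hid a higher distal count. Psmd1 was higher on both, with 0.94 at the distal end and 0.56 at 6402 bp upstream. Both segments of Psmd1 lie mostly in introns of the canonical transcript. Psmd9 had 0.06 on its most distal segment and -0.83 at 1604 bp upstream. In the other genes, whose segments lie closer together, no such order held for all: Psmg1 had 0.84 on both segments, 104 bp apart, Psmb8 had 0.39 (SE 0.43) at the distal end and -0.24 (SE 0.30) at 188 bp upstream, and Psmb1 had 0.26 at 696 bp and 0.47 at 938 bp upstream.

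The fit was therefore also made on the most distal segment of each gene alone, which leaves 26 proteasome genes among 5093. Of these, 8 (30.8%) were higher and 2 (7.69%) were lower, where 4.54% and 6.62% of all genes were. The higher ones were Psma7 (log2 fold change 0.64), Psmb3 (0.80), Psmb4 (0.56), Psmb6 (0.74), Psmc1 (0.54), Psmc5 (0.80), Psmd1 (0.61) and Psmd2 (0.53). The lower ones were Psmc6 (-0.84) and Psmd8 (-0.76), the latter on a segment with 78 bp outside other segments. Genes with a single segment had smaller values in this fit, because its libraries are scaled on distal segments: Psma4 had 0.46 on all segments and 0.17 here, with an adjusted p of 0.329 by edgeR. Psma4, Psmb2, Psmb7, Psmd3, Psmd6, Psmd14 and the chaperone Psmg1 (0.51, adjusted p = 0.295 by edgeR), higher on all segments, were not past the threshold here, and Psmd11 had -0.28 (adjusted p = 0.318 by edgeR). Psmd4 and Psma6, with their main segments 11 and 13 bp upstream of the most distal one, have no value in it. Of the other genes past the threshold on all segments, Psma3, Psmb1, Psmd12 and Psme3ip1 have none either.

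The genes around the proteasome were taken from lists of 58 genes, of which 40 were tested, with 5 higher (Adrm1, Uchl5, Ubb, Ubqln4 and Vcp) and 11 lower. Over all features tested, 11.7% were higher and 17.5% were lower, and the counts of the single lists below stand against the same shares. The median log2 fold change of the 40 genes was -0.13. The other parts of the particle had 2 of 9 tested genes higher and none lower. Adrm1, a ubiquitin receptor of the base, had 23.7, 26.8, 38.1, 29.2 and 35.4 CPM in the ASO group and 23.6, 17.3, 11.9, 24.2 and 17.97 CPM in the CTRL group. The libraries overlapped (log2 fold change 0.69, SE 0.22, adjusted p = 0.0312 by edgeR). Uchl5, the deubiquitinase that Adrm1 recruits, was higher as well (log2 fold change 0.52, SE 0.14, adjusted p = 0.0154 by edgeR). Pomp, which matures the core, had a log2 fold change of 0.12 (adjusted p = 0.465 by edgeR), and the small subunit gene Sem1 had 19 counts in all and was not tested.

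Nfe2l1, the transcription factor known to raise proteasome genes when the proteasome is impaired, was lower. Its level was 817, 885, 428, 781 and 821 CPM in the ASO group and 1062, 972, 1007, 1237 and 1152 CPM in the CTRL group. The groups did not overlap (log2 fold change -0.54, SE 0.19, adjusted p = 0.0455 by edgeR), and its main segment lies 768 bp upstream of its most distal one. Nfe2l2, a related factor of the oxidative stress response, had 33.3, 68.8, 37.6, 84.3 and 37.7 CPM in the ASO group and 91.02, 102, 84.96, 94.4 and 87.6 CPM in the CTRL group and was lower too, on its most distal segment (log2 fold change -0.81, SE 0.24, adjusted p = 0.0253 by edgeR). Of 5 tested genes in this list, these were the only ones past the threshold.

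Both factors bind the antioxidant response element, so its core, TGACNNNGC, was sought on both strands of the RefSeq promoters (GRCm38.p6, 300 bases each). It was found in 6 of 43 proteasome promoters (14.0%), and in 12.5% of 27025 promoters of all genes. The box CCAAT, bound by NF-Y, was in 15 of 43 (34.9%) and in 37.9% of all. The capitals below mark the core in a gene that was higher and one that was lower, each on the strand that reads the motif.
Psmb6 (chr11:70525338-70525366, + strand): ctaaagagagTGACGGAGCgctttacgac
Psmc6 (chr14:45329587-45329615, - strand): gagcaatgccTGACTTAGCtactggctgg

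Among ubiquitin genes and their activation, Ubb, which encodes ubiquitin, was higher (log2 fold change 0.50, SE 0.12, adjusted p = 0.00775 by edgeR), and Uba6, an activating enzyme, was lower (log2 fold change -1.60, SE 0.25, adjusted p = 0.000865 by edgeR). The shuttle and unfoldase list had 2 of 12 higher and 4 lower. Vcp, the ATPase that extracts ubiquitinated proteins, was at 909 ± 27.2 CPM for the ASO against 667 ± 106 CPM for CTRL (SD, n = 5), without overlap (log2 fold change 0.45, SE 0.13, adjusted p = 0.0258 by edgeR). Ubqln4, a shuttle of ubiquitinated proteins, was higher (log2 fold change 0.52, SE 0.18, adjusted p = 0.0432 by edgeR), while its relative Ubqln1 (log2 fold change -1.37) was lower, as was the Vcp cofactor Ufd1 (-0.95), with adjusted p = 0.000436 and 0.0039 by edgeR. The main segments of Ubqln1 and Ufd1 lie 1661 and 14092 bp upstream of their most distal ones.

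Of 6 atrophy ligases tested, none was higher and 2 were lower. Trim63, a ligase of sarcomere proteins, had 21.2, 36.5, 16.1, 24.6 and 21.7 CPM in the ASO group and 34.4, 44.8, 32.6, 50.7 and 42.7 CPM in the CTRL group. The groups overlapped (log2 fold change -0.77, SE 0.22, adjusted p = 0.0192 by edgeR), and all its counts are on a segment outside the canonical transcript. Mul1, a mitochondrial ligase, was lower (log2 fold change -1.81, SE 0.30, adjusted p = 0.0011 by edgeR), on a segment in an intron 3254 bp upstream of its most distal one. Fbxo32, the other known atrophy ligase, had a log2 fold change of -0.05 (SE 0.31, adjusted p = 0.924 by edgeR). In the list of class I antigen processing, which uses peptides cut by the proteasome, none of 6 tested genes was higher and 2 were lower. The interferon-related transcription factor Irf1 was lower (log2 fold change -1.22, SE 0.34, adjusted p = 0.0162 by edgeR), and its main segment lies 4289 bp upstream of the last one.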

How the data were processed

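The authors deposited unnormalized counts of read pairs. Per their methods, fastp trimming and STAR alignment (GRCm39) preceded featureCounts with Gencode M25, and only the final 500 bp of each 3′UTR were kept. No strand option is given in the sources used here. A total of 4 per-sample columns were not used. Of 52423 segments, 52361 were matched to GENCODE M39, and the 62 others (0.0197% of the counts) were kept as features of their own. Segments were summed per gene and tested with edgeR 4.0.16 in R 4.3.3 (TMM, filter on low counts, quasi-likelihood test, Benjamini-Hochberg adjustment, 0.05). Intervals were not computed for CPM, and the library totals limit low values. The procedure was tested on simulated gene counts, which held no difference between distal and upstream segments. That test does not cover such a difference between the groups.

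The genes named with the value of every library are those past the threshold and the gene with the highest level in each list of proteasome genes. Of other genes of the pathway, at most 8 per direction past the threshold and Nfe2l1, Nfe2l2, Trim63, Fbxo32, Adrm1, Sem1 and Pomp were named. The members and lists were chosen with earlier results of these data known. Alternatives were DESeq2 1.42.0, limma 3.58.1 (voom), other scalings and filters, thinned libraries, the replicate block, each library left out and the most distal segment only. Fits of each segment and of the main segment of a gene were added after seeing the data. Of the matches to the seed and of the genes of the pathway, 1 each is not reported here. Python 3.11.15 with pandas 2.3.3 and matplotlib 3.10.9 served for the rest.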

Additional observations from a re-analysis of the deposited data

Results flagged for a closer look

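In 6 of 80 groups of 5 libraries, 1 library lay far from the others for its gap relative to the range of the group, and chance alone marks about 1 in 20 groups. In the ASO group this was replicate 3 for Psma7 (349 CPM, the others 218 to 248), for Psmb2 (265, the others 180.1 to 202) and for Psmd6 (311, the others 169.9 to 207), and replicate 5 for Psmd9 (22.2, the others 17.3 to 18.7). Replicate 3 is also the ASO library with the highest ratio of distal to upstream counts, 1.77. In CTRL it was replicate 5 for Psmb10 (6.74, the others 15.8 to 17.7) and for Psmd5 (19.6, the others 33.5 to 36.4), and this library has the lowest ratio, -0.59. The part of that ratio in these values was not tested. Without ASO replicate 3, 16 proteasome genes were higher and 5 lower, against 9.65% and 14.5% of all features. Without CTRL replicate 5, 13 were higher and 6 lower, against 9.09% and 14.6%. The fit on all libraries had 18 and 5, against 11.7% and 17.5%.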

How the results depend on the processing

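Psma3, Psma7, Psmb3, Psmb4, Psmb6, Psmc1, Psmc5, Psmc6, Psmd1, Psmd4, Psmd8 and Psme3ip1 kept their direction and stayed past the threshold in every alternative that gave a value, and no call reversed. Psma3, Psmd4 and Psme3ip1 had no value with the most distal segment only, so that fit could not check them. With library totals as the scale, 11 proteasome genes were higher and 6 lower, the median log2 fold change was 0.27 in the core and 0.31 in the regulatory particle, and 528 of all features (6.75%) were higher and 1821 (23.3%) lower. This scaling moved the median of all features from -0.03 to -0.21, and the higher share of the calls among proteasome genes from 78.3% to 64.7%. With the most distal segment only, where 26 were tested, 8 were higher and 2 lower, the medians were 0.23 and 0.32, and 231 and 337 of 5093 genes were higher and lower. Leaving out 1 library in turn gave 13 to 18 higher and 5 to 6 lower genes. Of all features, 8.65% to 12.9% were then higher and 14.1% to 17.1% lower. DESeq2 gave 19 and 5 of 43, against 7.84% and 10.4% of all features. Limma-voom gave 17 and 5 (11.8% and 17.3% of all features), thinned libraries 17 and 5 (11.3% and 16.8%), and the main segment alone 14 and 5 (10.2% and 16.7%). Psmd12 fell short of the threshold in 14 alternatives, Psmb7 in 13 and Psmb1 in 9. Psmd11 fell short in the fit of main segments (-0.12, adjusted p = 0.612 by edgeR). It also did in the fit of most distal segments (-0.28, adjusted p = 0.318 by edgeR). Both fits used the same segment of Psmd11, with libraries scaled on different sets of segments.

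With the replicate block, 12 proteasome genes were higher and 5 lower, with 663 and 1175 of all features. The deviations of samples with the same number correlated at -0.43, 0.06, 0.05, 0.06 and 0.165. Samples with different numbers were not compared, so whether the numbers pair the samples was not tested. Psmb5 and Psmc2, with 2 of 144 bp and 10 of 156 bp outside other segments, had no count. The main segment of Psmd13, with 0 unique bp, held 441 counts. Why Psmb5 and Psmc2 had no count was not tested.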
